A study of Mus musculus with 4 samples.

Results

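The genes of the cytosolic ribosomal proteins were examined for open chromatin in 4 mouse muscles. Accessible DNA was marked by ATAC-seq, where a transposase (Tn5) cuts open chromatin and tags the fragments for sequencing. The mostly fast extensor digitorum longus (EDL) and quadriceps (Quad) were profiled beside the slow soleus (Sol) and the diaphragm (Dia), the muscle of breathing. All mice are labelled wild-type C57BL/6, with no treatment named, and the study's methods describe male C57BL/6J mice bought as young adults. An age at harvest is not given for these pools. Each muscle is represented by 1 pooled peak list from pulverised whole muscle. The number of animals or libraries behind a list is not stated, and the study's legends give more than 1 sample per group for some ATAC-seq plots. With 1 list each there are no separate replicates of a muscle, and every difference below describes these lists.

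Peaks were taken as members when the gene assigned by the authors had a symbol of Rpl or Rps followed by a digit, or was Rpsa, Rplp0, Rplp1 or Rplp2. Ribosomal S6 kinases (Rps6k) and names with -ps, which mark pseudogenes, were left out. The rule found 460 of 120839 peaks, at 80 gene names. Members made up 123 of 30136 EDL peaks, 127 of 40337 Quad peaks, 109 of 28784 Sol peaks and 101 of 21582 Dia peaks. RefSeq lists 89 protein-coding genes whose symbols follow the same rule. Of these, 77 encode core subunits of the cytosolic ribosome, 46 in the large and 31 in the small subunit. A further 11 are paralogs or retrogenes, such as Rpl3l, the copy of Rpl3 expressed in striated muscle. The last, Rps19bp1, encodes a protein that binds Rps19 and is no part of the ribosome, but its name follows the rule. The remaining gene name with peaks, Rps4l, follows the rule although it is annotated as a pseudogene.

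The cytosolic ribosome translates nuclear messenger RNA, and its proteins are made in nearly equal amounts together with ribosomal RNA. Their genes are scattered over the genome, are transcribed in practically all cells and usually start within a pyrimidine stretch. Many of the mRNAs begin with a 5′ terminal oligopyrimidine tract (5′ TOP), through which growth signals acting on mTOR control their translation. In muscle, ribosome content sets the capacity for protein synthesis and rises with growth. Since these genes are active in all cell types, a peak in whole muscle cannot be assigned to muscle fibres, and weak opening in many nuclei cannot be told apart from strong opening in few.

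Before any signal, the start sites themselves are shown. The RefSeq promoter table (GRCm38.p6, the assembly behind mm10) held 69 of the 89 members, of which 57 were core genes. For 8 of them, 100 bases before the annotated start and the first 10 transcribed bases follow, 5′ to 3′ on the coding strand, with matches to the motifs described next in capitals. Rps21 and Rpl13a are shown for scores that were among the highest of the members, Rpl38 and Rps4x for scores among the lowest, and Rpl15 for a start that faces another gene. Rps6 encodes the subunit phosphorylated by S6 kinase. Rpl19 had a promoter peak in only EDL and Quad, and Rpl3l is the muscle paralog.
Rps21, chr2:180257279-180257388, + strand: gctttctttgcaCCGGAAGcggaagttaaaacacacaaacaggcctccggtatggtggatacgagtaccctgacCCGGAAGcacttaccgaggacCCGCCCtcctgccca
Rpl13a, chr7:45128736-45128845, - strand: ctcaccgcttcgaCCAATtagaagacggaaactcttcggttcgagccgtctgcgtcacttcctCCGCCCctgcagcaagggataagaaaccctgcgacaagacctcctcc
Rpl15, chr14:18270977-18271086, - strand: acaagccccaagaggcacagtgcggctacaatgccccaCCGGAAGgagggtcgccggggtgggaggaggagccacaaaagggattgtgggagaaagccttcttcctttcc
Rps6, chr4:86857358-86857467, - strand: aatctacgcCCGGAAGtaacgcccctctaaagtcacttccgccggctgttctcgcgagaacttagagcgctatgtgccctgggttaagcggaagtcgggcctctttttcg
Rpl38, chr11:114668480-114668589, + strand: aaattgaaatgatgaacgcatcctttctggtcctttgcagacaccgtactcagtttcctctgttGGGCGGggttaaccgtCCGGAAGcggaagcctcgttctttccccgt
Rps4x, chrX:102189382-102189491, - strand: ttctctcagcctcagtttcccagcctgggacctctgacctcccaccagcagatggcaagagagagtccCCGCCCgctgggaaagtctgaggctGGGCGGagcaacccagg
Rpl19, chr11:98026610-98026719, + strand: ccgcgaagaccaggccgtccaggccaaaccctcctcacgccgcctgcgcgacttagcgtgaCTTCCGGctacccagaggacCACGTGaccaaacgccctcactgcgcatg
Rpl3l, chr17:24732585-24732694, + strand: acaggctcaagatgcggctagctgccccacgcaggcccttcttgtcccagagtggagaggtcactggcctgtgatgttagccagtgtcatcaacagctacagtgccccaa

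A pair of features of these starts were more frequent among the members than among protein-coding promoters at large. An ETS motif (CCGGAAG, bound by factors such as GABPA) lay in 25 of 69 member promoters, 36.2% (95% Wilson interval 25.9 to 48.0%). Over all 16853 protein-coding promoters in the table the share was 12.5%, and over the 9058 with a peak at the start in any list it was 20.1%. Among the printed starts, Rps21 held it at 2 positions, and Rpl15, Rps6, Rpl38 and Rpl19 at 1 each. The other feature was the annotated start itself: 14 of 69 members, 20.3% (12.5 to 31.2%), began with a C followed by 4 pyrimidines, against 2.3% of all promoters. Rps21, Rpl15, Rps6 and Rpl38 were among these 14, while Rpl13a, Rps4x, Rpl19 and Rpl3l were not. These shares describe letters in the table, and the annotated start can lie some bases from the start used in muscle.

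The other motifs were searched in the same window of 250 bases before to 50 after the start, on both strands. A GC box (GGGCGG, bound by SP factors) lay in 58.0% of member promoters (46.2 to 68.9%), against 48.5% of all promoters and 69.0% of those with a peak. NF-Y (CCAAT) was found in 31.9% of members (22.1 to 43.6%), against 39.5% of all. YY1 (AAGATGGC) was found in 7.2% of members and 3.4% of all, the E-box (CACGTG) in 7.2% and 8.1%, NRF1 (GCATGCGC) in 2.9% and 3.8%, and the TATA box (TATAAA) in 10.1% and 13.1%. For each of these 6 motifs the members' interval contained the share of all promoters. For the GC box it ended just below the 69.0% of promoters with a peak. Matches of different motifs overlapped in 1 member promoter, a GC box with NF-Y, and in 1 promoter each a YY1 match and a GC box overlapped the pyrimidine start. The median promoter of the members held 21 CpG dinucleotides in 300 bases, against 14 over all promoters and 22 over those with a peak. Rpl3l held 3.

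**Figure D1:**
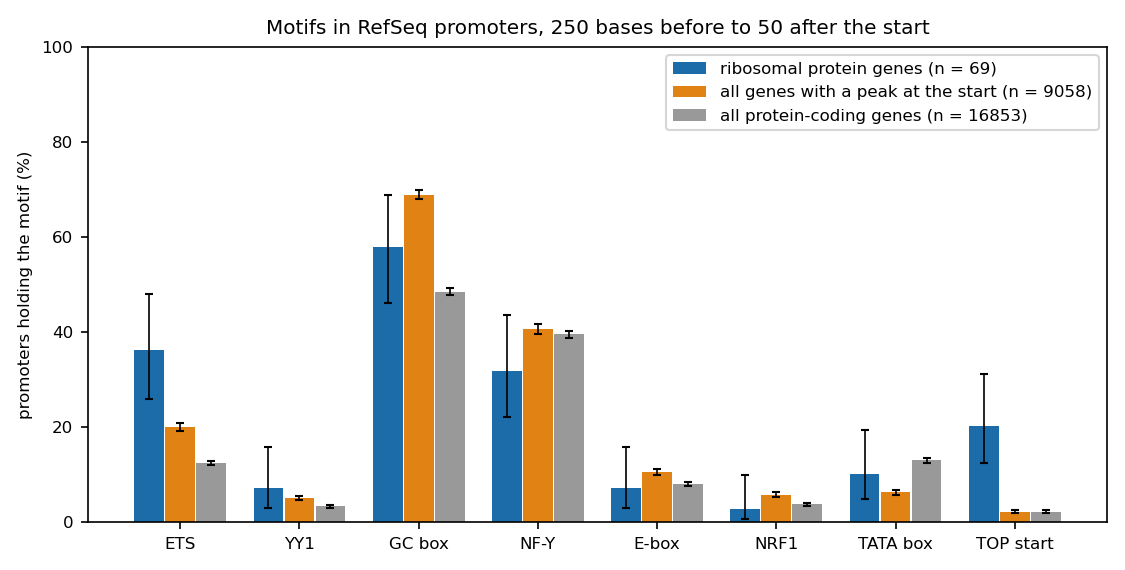
Share of promoters (%, vertical axis) holding each motif, or a pyrimidine (TOP) start, in the RefSeq window of 250 bases before to 50 after the start. Bars are 69 ribosomal protein genes, all genes with a peak at the start and all protein-coding genes, with 95% Wilson intervals. The members stand above both other groups for ETS (36.2%) and for the pyrimidine start (20.3%).

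The first comparison asked at how many of these genes each list held a promoter-TSS peak, that is, a peak from 1000 bp upstream to 100 bp downstream of the transcription start site (TSS) of the gene assigned by the authors. Of the 89 genes, EDL listed such a peak at 76, Quad at 75, Sol at 72 and Dia at 72. These were 85.4%, 84.3%, 80.9% and 80.9% of the genes. Over all 21000 protein-coding genes the shares were 40.2% (EDL), 44.0% (Quad), 40.1% (Sol) and 39.4% (Dia). In all 4 lists, 69 members had a promoter-TSS peak, 77.5%, against 32.1% of all genes. Among genes with such a peak in at least 1 list, 69 of 77 members (89.6%) had it in all 4, against 64.6% of all genes. The core subunits alone gave 64 of 77 genes, with 38 of 46 in the large and 26 of 31 in the small subunit.

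The mitochondrial ribosomal proteins, whose genes serve the ribosome inside mitochondria, had a promoter-TSS peak in all 4 lists at 33 of 78 genes. Proteasome subunits had it at 28 of 40. Of 26 other translation genes, mostly elongation and initiation factors, 17 had it in all 4 lists, and of 24 ribosome biogenesis genes 14 had it. By assigned gene, the 77.5% of the cytosolic ribosomal proteins was the highest share of the 5 lists, against 42.3% to 70.0%, but this order did not hold when peaks were counted by position. No test of these differences was made.

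Among the core genes, most of those without a promoter-TSS peak in all 4 lists had one there under another gene's name. For 11 of the 77 core genes a protein-coding gene starts on the opposite strand within 1000 bp upstream, 14.3% against 8.8% of all protein-coding genes. A peak there can be assigned to either gene, since the authors' annotation takes the nearest TSS. Rpl7a faces Med22, Rps18 faces Vps52, Rps25 faces Trappc4, Rps27 faces Rab13 and Rps28 faces Ndufa7, and in all 4 lists the peak carried the partner's name. The peaks at the start of Rpl15 were named Nkiras1 in EDL, Sol and Dia and Rpl15 in Quad. The start of Rpl4 carried its own name in EDL, Sol and Dia and that of Zwilch in Quad. At Rps2 the Quad peak was named Snhg9, a small nucleolar RNA host gene.

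Counted by position, whatever the name, EDL and Quad each had a peak at the start of 76 of 77 core genes, Sol at 72 and Dia at 73. Starts were those of curated RefSeq protein-coding transcripts. All 31 small subunit genes had one in all 4 lists. The large subunit had one in all 4 lists at 41 of 46 genes. Over all 89 members the count was 77 (86.5%), against 38.4% of all protein-coding genes. By the same count the share was 87.5% for proteasome subunits (35 of 40), 88.5% for other translation genes (23 of 26) and 71.8% for mitochondrial ribosomal proteins (56 of 78), with 18 of 24 ribosome biogenesis genes, so that the members were close to the first 2 of these lists. Of the 11 core genes with a divergent neighbour, 10 had a peak in all 4 lists by position and 3 by name.

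Most of the peaks that carried a partner's name were scored high, and the Quad peak at Rpl4 was not. At the shared start of Rpl15 and Nkiras1 the score percentile, the rank of a peak among all peaks of its list from lowest to highest score with ties averaged, was 97.9 (EDL), 99.02 (Quad), 98.3 (Sol) and 98.5 (Dia). At the start of Rps18 it was 95.4, 92.3, 91.7 and 88.4 in the same order. The start of Rps27 stood at 92.5, 90.3, 85.6 and 89.8, and that of Rps25 at 90.05, 91.7, 86.9 and 85.1. At Rpl7a the values were 85.7, 80.4, 86.4 and 80.1, and at Rps28 66.4, 82.9, 73.2 and 76.4. The opening at these starts cannot be divided between the genes of a pair.

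Of the large subunit, 5 core genes lacked a listed peak at the start in at least 1 muscle, also by position. Rpl36 had none in any list at the start of its curated transcript, chr17:56613395. The nearest peaks lay 3568 to 3612 bp away, at the promoter of 2410015M20Rik. The gene record of Rpl36 begins farther upstream, at 56610094, near those peaks (56609695 to 56609903 in EDL). Its absence therefore depends on the start chosen. Rpl18 had a peak in EDL (132 tags, exact Poisson 95% interval 110 to 157) and Quad (87 tags, 69.7 to 107) and none in Sol or Dia. In Sol the nearest peak lay 2672 bp away, at a promoter assigned to its divergent neighbour Sphk2, and in Dia 13078 bp away at Dbp. That Sol peak (45715296 to 45715502) spans the beginning of the Rpl18 gene record, at 45715467. The curated transcript used here starts at 45718071, so the absence in Sol also depends on the start chosen. Tags are the reads counted in a peak, inferred from the step of the scores, and these intervals cover counting error only.

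Rpl19 was listed in EDL with 75 tags (59.0 to 94.0) and in Quad with 59 tags (44.9 to 76.1), and not in Sol or Dia. Its EDL and Quad peaks did not overlap, with a gap of 51 bp. Rpl8 was listed in EDL with 84 tags, in Quad with 81 and in Dia with 95, and not in Sol. Rpl24 was open in all 4 lists, but its Sol and Dia peaks were centred 120 and 123 bp downstream of the TSS, just outside the promoter class, while those of EDL and Quad were centred 87 and 90 bp downstream. For comparison, the lowest peak of a list held 25 tags (Quad) to 36 tags (Dia). A gene without a listed peak may still hold tags below the threshold of its list.

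The paralogs fell into 2 groups. Rpl22l1, Rpl36al, Rps27l and Rpl7l1 had a promoter-TSS peak in all 4 lists, and Rpl3l in 3. The other 6 protein-coding copies, Rpl10l, Rpl32l, Rpl37rt, Rpl39l, Rps23rg1 and Rps27rt, had no peak at their start in any list. A peak at the start in at least 1 list was thus found for 5 of 11 paralogs. Over all protein-coding genes it was found for 11118 of 21000, so the split is near that of genes in general. Rpl10l and Rpl39l are known for expression in testis. The nearest peak to a start of these 6 lay between 4203 bp (Rps27rt in Sol) and 1111747 bp (Rpl10l in Quad) away. Reads from a retrogene can be identical to those of its parent, and how such reads were placed bears on both.

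Rpl3l was the only one of the 5 open paralogs that lacked a peak in 1 list. Its best promoter-TSS peak held 154 tags in EDL (130.6 to 180.3), 115 in Quad (94.9 to 138.0) and 139 in Sol (116.9 to 164.1), at score percentiles of 89.0, 89.0 and 85.3. A second promoter peak at its upstream start, in the same 3 lists, held 118, 80 and 112 tags. Dia listed neither, and its nearest peak lay 3790 bp away, at the promoter of Msrb1, at percentile 96.7. The parent gene Rpl3 was listed in all 4 muscles, with 129 tags (EDL), 90 (Quad), 130 (Sol) and 99 (Dia). The absence of Rpl3l in Dia has no replicate check.

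Of the other open paralogs, Rpl22l1 and Rpl36al stood near or above their parents within a list. Rpl22l1 had percentiles of 91.7 (EDL), 95.1 (Quad), 90.1 (Sol) and 89.2 (Dia), beside 92.6, 89.6, 80.3 and 89.2 for Rpl22. Rpl36al stood at 94.8, 96.9, 96.5 and 92.4, beside 63.9, 53.3, 40.5 and 47.6 for Rpl36a, which lies on the X chromosome. Rps27l stood at 82.7, 91.8, 86.1 and 90.4, below the peak at the start of Rps27 in EDL and near it in the other lists. Rpl7l1 was lower than its parent in every list, with 39.6, 43.4, 35.8 and 64.9 beside 87.2, 93.5, 86.1 and 86.8 for Rpl7. Among all peaks of a list, only Rpl7l1 of these had its highest percentile in Dia. Its 93 tags there (75.1 to 113.9) compare with 63, 47 and 62 in EDL, Quad and Sol. Ranked instead among protein-coding genes with a promoter-TSS peak in every list, Rps27l was highest in Dia too. Its percentile on that scale was 76.4 in Dia, against 53.1 (EDL), 65.0 (Quad) and 60.4 (Sol).

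The second comparison asked how strong the promoter peaks were within each list. With 1 peak per gene, the best scored, the members had a median score percentile of 86.1 (EDL), 87.1 (Quad), 82.9 (Sol) and 80.7 (Dia). Over all protein-coding genes with a promoter-TSS peak the medians were 77.1, 82.1, 76.6 and 74.6. The members' median was the higher in each list. Split by subunit, the large subunit in Quad was the exception, at 81.3 against 82.1 of all genes. The small subunit stood at 89.3 there. Among promoter-TSS peaks alone, the members' medians were 66.0, 62.0, 60.8 and 61.3, against 51.4, 51.7, 51.1 and 51.2 of all genes. On that scale the large subunit in Quad had 50.1 and the small subunit 66.9. The share of members above percentile 90 was 32.9%, 38.7%, 31.9% and 22.2%, against 27.0%, 32.8%, 26.5% and 21.6% of all genes. The share below percentile 50 was 6.6%, 1.3%, 13.9% and 8.3%, against 20.3%, 15.02%, 20.6% and 20.5%. In each list the shares differed more at the low end than at the high end.

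Median percentiles of the mitochondrial ribosomal proteins were 67.1, 73.1, 62.5 and 69.6 in the same order. Proteasome subunits had 79.4, 85.6, 79.0 and 76.8, other translation genes 83.6, 87.4, 76.0 and 75.5, and ribosome biogenesis genes 83.4, 84.3, 76.4 and 71.4. In the plot of percentiles by gene list, the members' medians exceed those of the mitochondrial ribosomal proteins in each muscle.

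**Figure D2:**
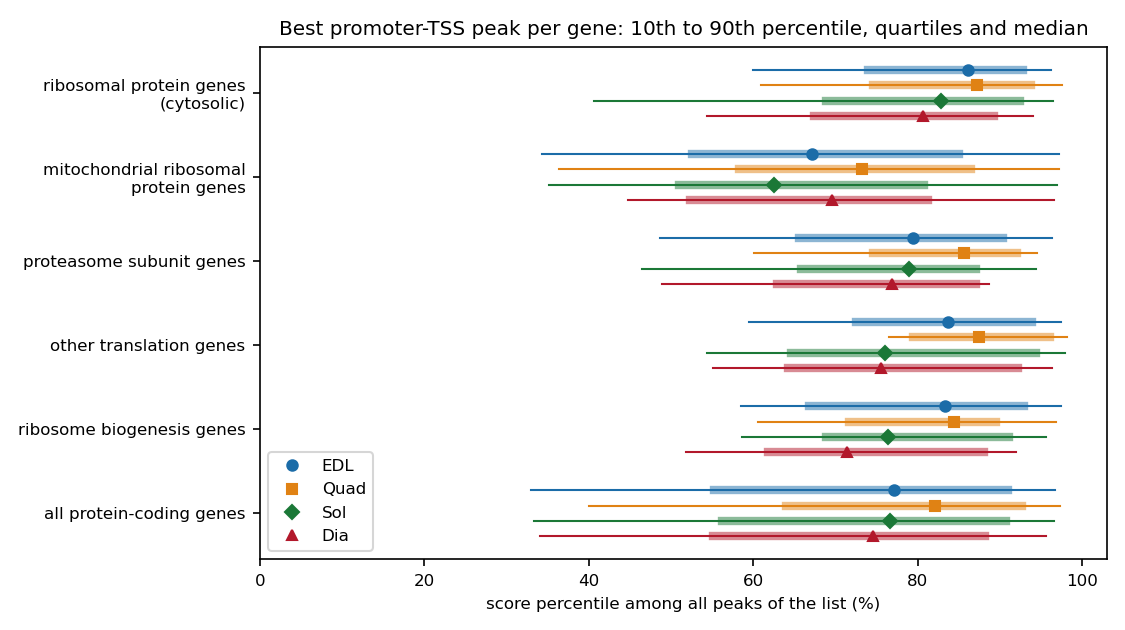
Score percentile (%, horizontal axis) of the best promoter-TSS peak per gene among all peaks of its list, for 6 gene lists and 4 muscles. Symbols are medians, thick bars the quartiles and thin lines the span from the 10th to the 90th percentile of genes. Members had medians of 80.7 to 87.1, and all protein-coding genes 74.6 to 82.1.

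Among the strongest promoters were those of Rps21, Rpl13a and Rpl27, beside the Quad peak of Rpl15. Rps21, a small subunit protein, had 299 tags (EDL), 225 (Quad), 309 (Sol) and 274 (Dia), and percentiles between 98.9 and 99.3. Its scores of 28.8, 28.8, 29.5 and 27.6 were almost level, and their counting intervals overlapped. Rpl13a, which also takes part in translational silencing outside the ribosome, ranged from 98.0 in Sol to 99.3 in EDL. Rpl27 ranged from 96.7 to 98.9. These 3 genes were near the top of every list.

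At the other end stood Rpl4, Rps4x, Rpl38, Rpl35a and Rpl36a. Rpl4, a large subunit protein near the exit tunnel, had 53 tags in EDL, 60 in Sol and 49 in Dia, at percentiles of 25.6, 33.4 and 14.96. The Quad peak, named Zwilch, held 34 tags at percentile 14.95. Rps4x, the X-linked small subunit gene, had percentiles of 35.7 (EDL), 59.0 (Quad), 19.0 (Sol) and 38.1 (Dia), with 50 to 64 tags. Rpl38, known for its part in translating Hox mRNAs in the mouse, stood at 43.2, 57.9, 43.8 and 55.1. Rpl35a had 45.5, 53.3, 51.9 and 54.2, and Rpl36a 63.9, 53.3, 40.5 and 47.6. These weak peaks were nevertheless listed in all 4 muscles, apart from the renamed Quad peak at Rpl4.

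**Figure D3:**
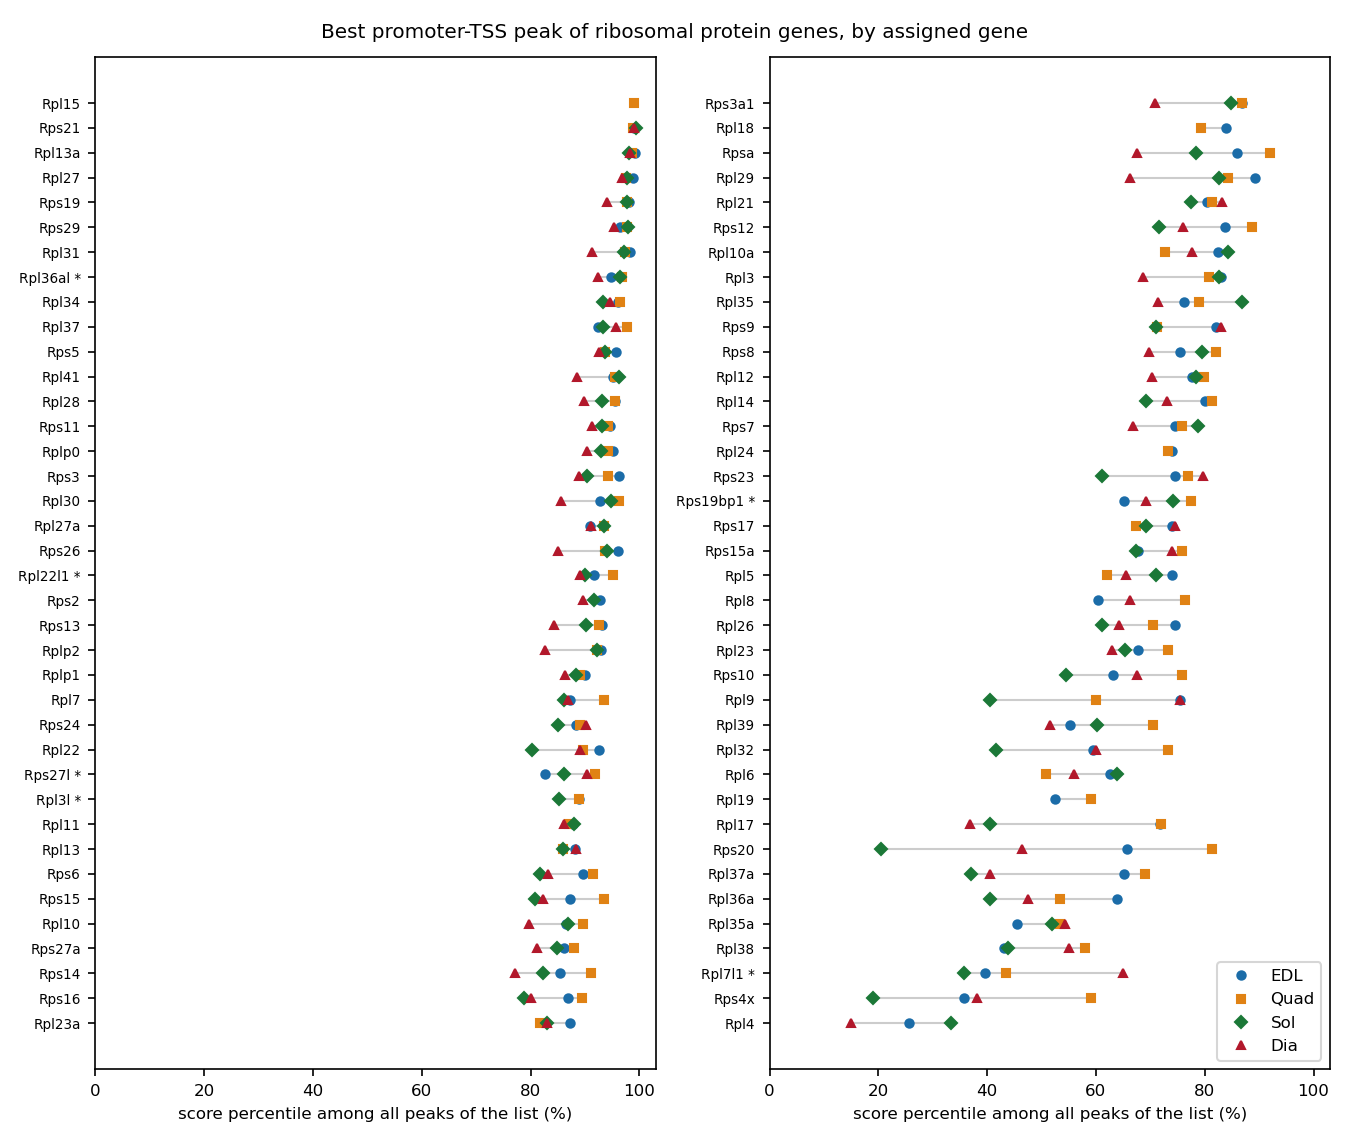
Score percentile (%, horizontal axis) of the best promoter-TSS peak of 76 of the 77 ribosomal protein genes with one in at least 1 list, by assigned gene, in order of their mean. Each symbol is 1 muscle and a missing symbol is a list without such a peak. An asterisk marks paralogs and Rps19bp1. Rpl15, whose place rests on Quad alone, and Rps21 stand at the top and Rps4x and Rpl4 at the bottom, and on this scale the spread between muscles is larger towards the lower end.

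Of the 4 X-linked core genes, Rps4x, Rpl36a and Rpl39 stood in the lower range, and Rpl10 did not, with percentiles of 86.4, 89.6, 86.9 and 79.8. To compare muscles on the same genes, scores were also ranked among the 6751 protein-coding genes with a promoter-TSS peak in all 4 lists. On that scale the 4 X-linked genes had medians of 21.7, 14.8, 15.2 and 13.6 in the order EDL, Quad, Sol, Dia. All X-linked protein-coding genes had 27.1, 23.2, 25.4 and 21.6, and the members 60.3, 53.2, 53.5 and 56.3. Males carry 1 X chromosome, and the part of copy number in these values was not tested.

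The proteins of the stalk, which recruits translation factors to the large subunit, were high. Rplp0 had percentiles of 95.1 (EDL), 94.3 (Quad), 93.0 (Sol) and 90.4 (Dia), and Rplp1 had 90.05, 89.2, 88.4 and 86.4. Rplp2 had 93.0, 92.3, 92.2 and 82.6. For Rplp2 the peak itself moved, since it was centred at -338, -342 and -333 bp from the TSS in EDL, Quad and Sol and at -94 bp in Dia. Rpsa, a small subunit protein that is also known as the laminin receptor, spread more widely, with 86.0, 92.0, 78.3 and 67.5. Rps27a, which encodes a fusion of ubiquitin with a ribosomal protein, had 86.2, 88.0, 84.8 and 81.2, and Rps6 had 89.6, 91.5, 81.6 and 83.3. Rps19bp1, the binding partner, had 65.1, 77.5, 74.2 and 69.3.

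Some ribosomal proteins carry other names and are no members. Rack1 had a promoter-TSS peak in all 4 lists, with percentiles of 84.5, 85.0, 65.3 and 70.4. Fau, a fusion of a ubiquitin-like protein with a small subunit protein, had it in EDL, Sol and Dia, at 72.9, 73.7 and 65.6.

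The third comparison asked how far the lists agreed on these promoters. For genes listed in both muscles of a pair, the best peaks overlapped by at least 1 bp at 70 of 74 members in EDL and Quad (94.6%), against 95.2% of all genes. EDL and Sol overlapped at 70 of 72 (97.2%, against 95.8%), and EDL and Dia at 70 of 72 (97.2%, against 96.5%). Quad and Sol overlapped at 65 of 70 (92.9%, against 95.6%), Quad and Dia at 66 of 70 (94.3%, against 95.8%), and Sol and Dia at 65 of 71 (91.5%, against 96.5%). These shares are near the background of all genes in each pair, and are no property of the members. All member pairs had centres within 500 bp of each other, and so did most genes at large, 7719 of 7836 in EDL and Quad. The members' median offset between centres was 28.5 to 37.0 bp. In each pair it was somewhat larger than the median offset over all genes.

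The pairs without overlap came from 10 genes, Rpl7, Rpl7l1, Rpl10, Rpl19, Rpl27a, Rpl32, Rpl39, Rplp2, Rps14 and Rps19. The gap between their peaks was 9 to 158 bp. Rpl10 was centred at -159 bp in Sol and farther out elsewhere, at -524 (EDL), -488 (Quad) and -449 bp (Dia), with negative values upstream of the TSS. Rps19 was centred at -488 bp in Quad, and at -155, -177 and -154 bp in EDL, Sol and Dia. Rpl32 was centred at -25 bp in Dia and between -297 and -278 bp in the other 3 lists.

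Peak centres lay close to the start. The members' median centre lay at -38 bp from the TSS (EDL and Quad), -45.5 bp (Sol) and -42 bp (Dia), against -54, -49, -52 and -51 bp over all protein-coding genes. The farthest upstream was Rpl7 in Sol, at -579 bp.

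The order of scores was shared between muscles. Spearman's rho across the members listed in both was 0.93 in EDL and Quad (n = 74 genes), 0.94 in EDL and Sol (n = 72), 0.91 in EDL and Dia (n = 72), 0.91 in Quad and Sol (n = 70), 0.88 in Quad and Dia (n = 70) and 0.90 in Sol and Dia (n = 71). Over all protein-coding genes it lay between 0.91 and 0.92. Genes are not independent replicates, and the points of a pair share their libraries, sequence and base composition, so these values are descriptions. The members' order was as alike between muscles as that of promoters in general.

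Among the 64 core genes present in all 4 lists, the widest range of percentiles among all peaks was that of Rps20, a small subunit protein, at 60.8 percentage points. Ranked among genes present in all 4 lists, its range was 35.2, below those of Rps9 (39.3), Rpl9 (37.5) and Rpl29 (35.7). Its score was 8.85 for EDL (7.14 to 10.9), 11.7 for Quad (9.38 to 14.3), 4.87 for Sol (3.63 to 6.41) and 7.15 for Dia (5.59 to 9.02), with exact Poisson intervals of the tags behind it. The percentiles were 65.8, 81.3, 20.5 and 46.4. Sol was lowest, and its interval did not overlap those of EDL and Quad. These intervals cover counting error only, and not differences between lists such as peak width. Rps4x followed, with a range of 40.0 percentage points, but only 50 to 64 tags in any list, and a range of 8.3 among genes present in all 4 lists.

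Rpl9, a large subunit protein whose start faces Lias, was high in EDL and Dia and low in Sol. Its score was 10.5 for EDL (8.61 to 12.7), 7.68 for Quad (5.86 to 9.89), 6.31 for Sol (4.88 to 8.03) and 11.3 for Dia (9.29 to 13.6). Rpl17 had percentiles of 71.8 in EDL and 71.9 in Quad, and 40.5 in Sol and 36.8 in Dia. Its scores were 9.81, 9.48, 6.31 and 6.35, so that the 2 mostly fast muscles stood above the other 2, with intervals that overlapped (7.44 to 11.9 in Quad and 4.88 to 8.12 in Dia). Rpl37a showed the same order, with 65.1 and 69.0 in EDL and Quad and 37.0 and 40.5 in Sol and Dia. These genes were named because their range was large, so that their differences are descriptions.

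Over the members as a whole, EDL stood higher than the other lists on the scale of genes present in all 4. Of the 69 members in all 4 lists, 51 ranked higher in EDL than in Quad and 18 lower, with a median difference of 6.70 percentage points, while the median over all 6751 genes was 0.12. EDL exceeded Sol at 47 of 69 members (median 3.85, against -0.08 over all genes) and Dia at 44 of 69 (3.47, against -0.04). Quad exceeded Sol at 24 of 69 (-3.08, against 0.05) and Dia at 29 of 69 (-2.69, against -0.01), and Sol exceeded Dia at 32 of 69 (-1.58, against 0.01). These comparisons share libraries and are not separate pieces of evidence.

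Counted by core gene, EDL ranked highest of the 4 lists at 43.8% of 64 genes, against 25.2% of all genes, and lowest at 4.7%, against 26.1%. Quad ranked lowest at 42.2%, against 25.8%, and highest at 10.9%, against 26.2%. Sol and Dia each ranked lowest at 26.6% of core genes, near the 22.8% and 25.3% of all genes. Among all peaks of a list, EDL exceeded Quad at 33 of 74 shared members and Quad exceeded EDL at 41, while over all genes EDL exceeded Quad at 1733 of 7836. Quad had the longest list, the narrowest peaks (188 bp, against 206 to 232 bp in the others) and the lowest inferred depth, 78.1 M tags against 99.3 to 104.6 M in the others, and their part in the difference was not tested. With 1 list per muscle, the muscle and its list cannot be told apart.

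**Figure D4:**
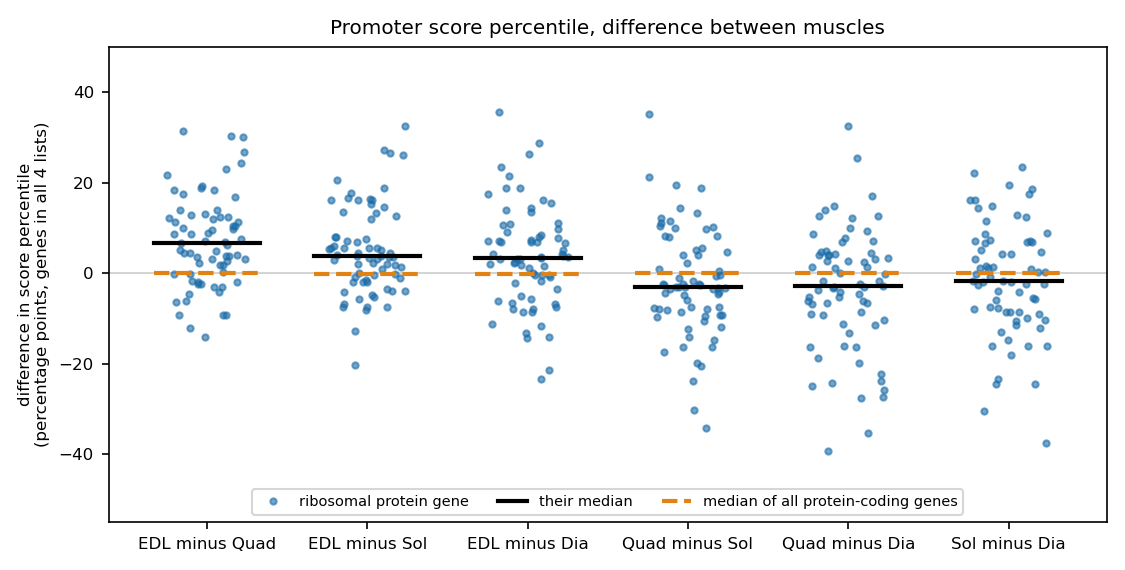
Difference in promoter score percentile (percentage points, vertical axis) for the 6 pairs of muscles, ranked among the 6751 protein-coding genes with a promoter-TSS peak in all 4 lists. Each point is 1 of 69 ribosomal protein genes, with horizontal scatter for display, the solid line is their median and the dashed line the median of all those genes. The members' median is 6.70 points for EDL minus Quad and -1.58 for Sol minus Dia.

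Outside promoters, 161 member peaks formed 84 regions at 31 gene names when overlapping peaks were joined. Intergenic peaks made up 104 of them and intron peaks 48. The intron peaks lay mostly in neighbouring genes, such as Pxn near Rplp0 and Tmtc1 near Rps4l. Of the regions, 82 lay over 5000 bp and 26 over 50000 bp from the assigned TSS, so that the ribosomal protein gene is only the nearest start. In all 4 lists 15 regions were found, and 45 were found in 1 list. The matching shares over all other genes were not computed, so these counts cannot be called particular to the members. The median percentile of these peaks was 40.5, against 38.2 for the same classes at all other genes.

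Rps24 and Rplp1 held 11 such regions each and Rpl29 held 6. The region that differed most between lists on the plot of distal regions lay 116247 bp downstream of the Rps24 start by the EDL peak (chr14:24606896-24607202). Its score was 14.6 in Sol (12.4 to 17.1), and 4.33 in EDL (3.16 to 5.79), 4.74 in Quad (3.34 to 6.53) and 5.94 in Dia (4.52 to 7.67). Sol was high and the other 3 were low, with no overlap of its interval with theirs. The region was named because it differed most, so this is a description. Here and below, the intervals cover counting error only, and not differences between lists such as peak width and threshold. The Rps24 promoter did not follow, with percentiles of 88.4 (EDL), 89.2 (Quad), 85.1 (Sol) and 90.2 (Dia).

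A second Rps24 region, 288523 bp downstream by the EDL peak (chr14:24779120-24779439), had scores of 9.62 (EDL), 14.1 (Quad), 14.6 (Sol) and 13.8 (Dia). At Rplp1 the strongest distal region lay 258855 bp from the start by the EDL peak (chr9:61655514-61655965), with scores of 18.3 for EDL (15.8 to 21.1), 17.2 for Quad (14.4 to 20.3), 15.6 for Sol (13.3 to 18.2) and 10.5 for Dia (8.56 to 12.7). Dia was lowest, below the intervals of the other 3. A region at -15702 bp from Rpl29 (chr9:106413605-106413947) fell in the order EDL 15.3, Quad 12.6, Sol 9.46 and Dia 8.16, with intervals of 13.0 to 17.9 in EDL and 6.48 to 10.1 in Dia. A second Rplp1 region, 268598 bp from the start by the EDL peak, had scores of 14.3, 13.7, 12.1 and 8.46. The region named Rps28, at 6860 bp in EDL, lay in an exon of Kank3 and had scores of 11.4, 14.7, 13.6 and 15.7. The other 4 of the 10 regions with the highest percentile were not found in all lists. At -23740 bp from Rplp0, in an intron of Pxn, only Quad had a peak (score 12.4), and at -20660 bp by the Sol peak EDL, Sol and Dia had scores of 10.9, 9.84 and 10.6. Near Rpl29, at -22680 bp by the EDL peak, EDL and Quad had scores of 10.9 and 11.9. Near Rpl32, at -5541 bp by the EDL peak and in an intron of Efcab12, they had 8.66 and 10.9.

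**Figure D5:**
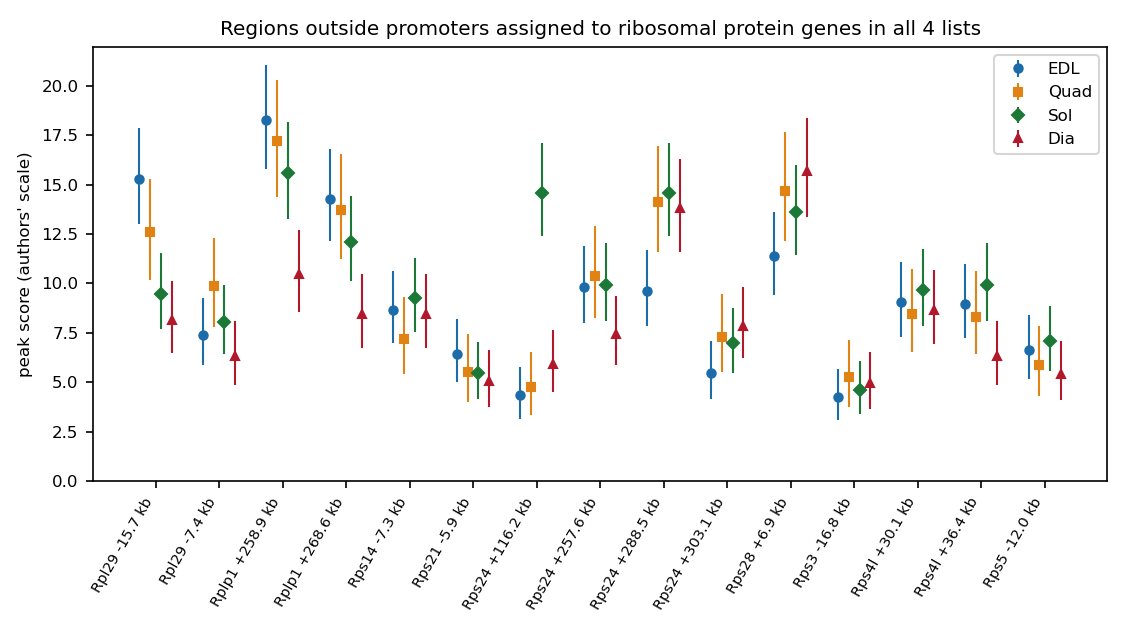
Peak score (authors' scale, vertical axis) in the 15 regions outside promoters found in all 4 lists, labelled by assigned gene and distance of the EDL peak from its TSS. Symbols are muscles and bars are exact Poisson 95% intervals of the inferred tags. The Sol peak of the Rps24 region 116247 bp downstream stands alone at 14.6, with 4.33 to 5.94 in the other lists.

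The makeup of the tissue was checked with fixed markers. Promoter-TSS peaks were listed at 5 (EDL), 6 (Quad), 4 (Sol) and 4 (Dia) of 7 skeletal muscle markers, with Mylpf, Ckm and Ttn in every list. Endothelial markers had them at 4 of 4 genes in EDL, Quad and Sol and at 2 of 4 in Dia. Myh7, the slow myosin heavy chain, had none in any list, and Myh4, a fast one, had it in EDL and Quad. Of leukocyte, Schwann cell, adipocyte and erythroid markers none had a promoter-TSS peak by assigned gene, and of fibroblast markers Dcn had one in Sol. By position, 1 of 2 Schwann cell markers had a peak at its start in all 4 lists. Of these 2 genes, 1 has a divergent protein-coding neighbour, and a peak at such a shared start can be assigned to either gene. The part of other cell types in the members' peaks was not tested.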

How the data were processed

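ATAC-seq was performed on frozen, pulverised muscle. The authors aligned reads to mm10 with Bowtie2 at default settings, under which a read matching several places equally well is kept at 1 of them, and ribosomal protein genes share sequence with many processed pseudogenes. HOMER kept 1 tag per start position, called peaks of near fixed width in factor style and assigned each to the nearest TSS. A Tn5 offset was not stated. The deposited score is the authors' tag count scaled by library size. The deposited focus ratio, a fraction, was not used in the text.

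From the files, 1 promoter-TSS peak per gene and list was kept, the best scored, and genes were matched to RefSeq (GRCm38.p6) by Entrez ID. All 299 member promoter peaks had their implied TSS within 100 bp of RefSeq's. The percentile is the rank of the score within a list, with ties averaged. Below a score of 10 all scores were whole multiples of 1 step within 0.0051, taken as 1 tag. Depths assume HOMER's scaling to 10 M tags. No test between muscles was possible with 1 list each. The scripts were tested on simulated data. Python 3.11.15, pandas 2.3.3 and scipy 1.17.1 were used. Coordinates are 1-based and read as the files give them.

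Named were members missing from a list, all paralogs with parents, the stalk proteins, Rpsa and Rps19bp1, the 5 core genes of highest and of lowest mean percentile, the 5 of largest range, the leading regions of other classes, and Fau and Rack1, and some items under this rule are not reported here. Members, lists and tests were chosen with earlier results of these data known.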

Additional observations from a re-analysis of the deposited data

How the results depend on the processing

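No paired analysis was possible because each muscle has 1 list. Counts of members with a promoter-TSS peak, the overlaps, the rank correlations and the centre distances stayed within 1.5 times or within their counting interval under every alternative run. In all 4 lists, 59 members remained in the upper 50% of each list by score and 65 among the 20000 highest-scored peaks, and 77 had a peak by position, against 69. The score percentile depends on what it is ranked against, by construction. In EDL, Quad, Sol and Dia the median was 66.0, 62.0, 60.8 and 61.3 among promoter-TSS peaks, and 60.3, 53.2, 53.5 and 56.3 among genes in all 4 lists, an alternative added after seeing the data. All protein-coding genes had 49.7, 50.1, 50.2 and 50.2 on the last scale. In Quad the large subunit had 40.8 there and the small subunit 56.6. With 20000 peaks per list the members' median was 79.2 in EDL, 75.8 in Quad and 76.5 in Sol. Searching only the 100 bases before the start lowered the motif shares to 18.8% for ETS, 1.45% for YY1, 30.4% for the GC box, 17.4% for NF-Y, 1.45% for the E-box, 0% for NRF1 and 2.90% for the TATA box. In that window all promoters gave 6.5% for ETS, 0.54% for YY1, 35.3% for the GC box and 22.1% for NF-Y. They gave 3.65% for the E-box, 2.05% for NRF1 and 6.01% for the TATA box. The members' GC box share thus lay below that of all promoters here, and above it in the longer window. Promoters with a peak gave 50.7% for the GC box. A list holds only peaks past its own threshold, so that no depth limit can be set for an absent peak.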
